A study of Mus musculus with 6 samples.

Results

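The lysosome genes described here are 30 gene symbols, chosen by name, of the 23183 that the count tables list. All 30 had a row. They comprise 18 hydrolases (8 peptidases, 8 glycosidases and a pair of enzymes that act on lipids and thioesters), 3 luminal proteins that are not enzymes, 6 membrane proteins and 3 transcription factors. Expression was measured by RNA sequencing of mouse Th9 cells, CD4 T helper cells that make interleukin 9, in 3 libraries of cells given sphingosylphosphorylcholine (SPC) and 3 control libraries. The SPC group was cultured for 3 days with 30 µM SPC and the control group for 3 days without it. Both groups were wild-type C57BL/6N spleen cells enriched as naive CD4 T cells. Both were stimulated through plate-bound anti-CD3e and soluble anti-CD28, each at 1 µg/ml, with IL-4 at 10 ng/ml, TGF-β1 at 2 ng/ml and an antibody against IFN-γ at 10 µg/ml. The sources used here give neither the age or sex of the mice nor how many mice each library drew on. The submitters describe 3 independent experiments, and the titles give the libraries of a group the numbers 1, 2 and 3.

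Lysosomes are acidic organelles in which hydrolases break down proteins, glycans and lipids delivered by endocytosis and autophagy. Their limiting membrane holds heavily glycosylated proteins, ion channels and lipid transporters, and many of their genes share a promoter element, named CLEAR, that is bound by the related factors TFEB, TFE3 and MITF. In T cells, lysosomes serve protein turnover, nutrient sensing and the release of granules. SPC is a lysosphingolipid, the deacylated form of sphingomyelin, which is itself broken down in lysosomes.

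The libraries held 22715292 to 33049997 counts in the SPC group and 22002050 to 30292992 in the control group. T cell markers were present in every library (Cd4 at 456.0 to 483.2 CPM, the count scaled to library size, with SPC and 434.0 to 467.6 CPM in control). The 8 T cell markers summed to 1901 to 2124 CPM with SPC and 1867 to 2003 CPM in control. Their median log2 fold change was -0.01, with 4 above and 4 below 0. Of 10 macrophage and monocyte markers, 5 had no count in any library and all stayed under 1 CPM, with a summed level of 0.230 to 0.486 CPM with SPC and 0.513 to 0.864 CPM in control. The 1 with enough counts to be tested had a log2 fold change of -1.77. The 5 B cell markers summed to 3.68 to 4.77 CPM with SPC and 3.35 to 3.59 CPM in control, with Ms4a1 at 0 in every library. In every library 4 of the 5 were under 1 CPM, and the 1 tested had a log2 fold change of 0.30. The 7 dendritic cell markers summed to 58.5 to 77.3 CPM with SPC and 59.1 to 70.8 CPM in control, nearly all of it Batf3, which activated T cells also express, while Clec9a was at 0 in every library. In the fit with the library number as a block, described below, 1 T cell and 1 dendritic cell marker were called as higher (adjusted p under 0.05). In that fit 1 macrophage marker was called as lower. Of all tested genes 4.02% were called as higher and 3.07% as lower. Fewer cells of a type and less RNA per cell cannot be told apart in such bulk samples.

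The summed level of the lysosome genes differed between the groups by less than the spread between libraries. Together the 30 genes took 1487, 1401 and 1444 CPM in SPC libraries 1, 2 and 3, against 1444, 1416 and 1475 CPM in control libraries 1, 2 and 3 (library sizes adjusted by TMM, the trimmed mean of M values). The means were 1444 ± 42.8 CPM with SPC and 1445 ± 29.5 CPM in control (SD, n = 3 each). Of the 29 genes with enough counts to be tested, none was called in edgeR's quasi-likelihood test with group as the single term (Benjamini-Hochberg adjusted p under 0.05 over all 12226 tested genes), where 0.483% of all tested genes were called. In that fit 1 member had an unadjusted p under 0.05, where 10.2% of all tested genes did. DESeq2 likewise called none, where it called 1.48% of all tested genes as higher and 0.810% as lower with SPC. By its unadjusted p, 1 member lay under 0.05, as did 1138 of the 12226 tested genes. The smallest adjusted p of a member was 0.315, for Man2b1. The median log2 fold change of the 29 was 0.02, with 18 above and 11 below 0. For all tested genes the median was 0.00, with 6171 above and 6055 below 0. With the library number as a block, 1 of the 29 members was called, Man2b1, which was lower with SPC, where 7.08% of all tested genes were called. With the block 6 members had an unadjusted p under 0.05, where 21.4% of all tested genes did.

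For most members the interval of the difference was narrow. The 95% confidence interval of the log2 fold change, taken gene by gene, lay inside ±0.5, which is a 1.41-fold change either way, for 24 of the 29 genes. The 5 whose interval reached further were Ctsl, Lgmn, Gla, Cd63 and Mitf. For 28 of the 29 it lay inside a 2-fold change, the exception being Cd63, which had few counts. With the library number as a block the interval lay inside ±0.5 for 25 of the 29. It excluded 0 for 6 members with the block, against 1 with group alone. In 2 members the libraries did not overlap between groups with SPC higher (Lgmn and Mcoln1) and in 1 with SPC lower (Man2b1), against 8.67% and 7.80% of all tested genes (16.5% in all). All 3 same-numbered pairs of libraries went one way in 14 members, 8 higher and 6 lower with SPC, as they did in 43.8% of all tested genes (21.8% higher and 22.0% lower).

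**Figure D1:**
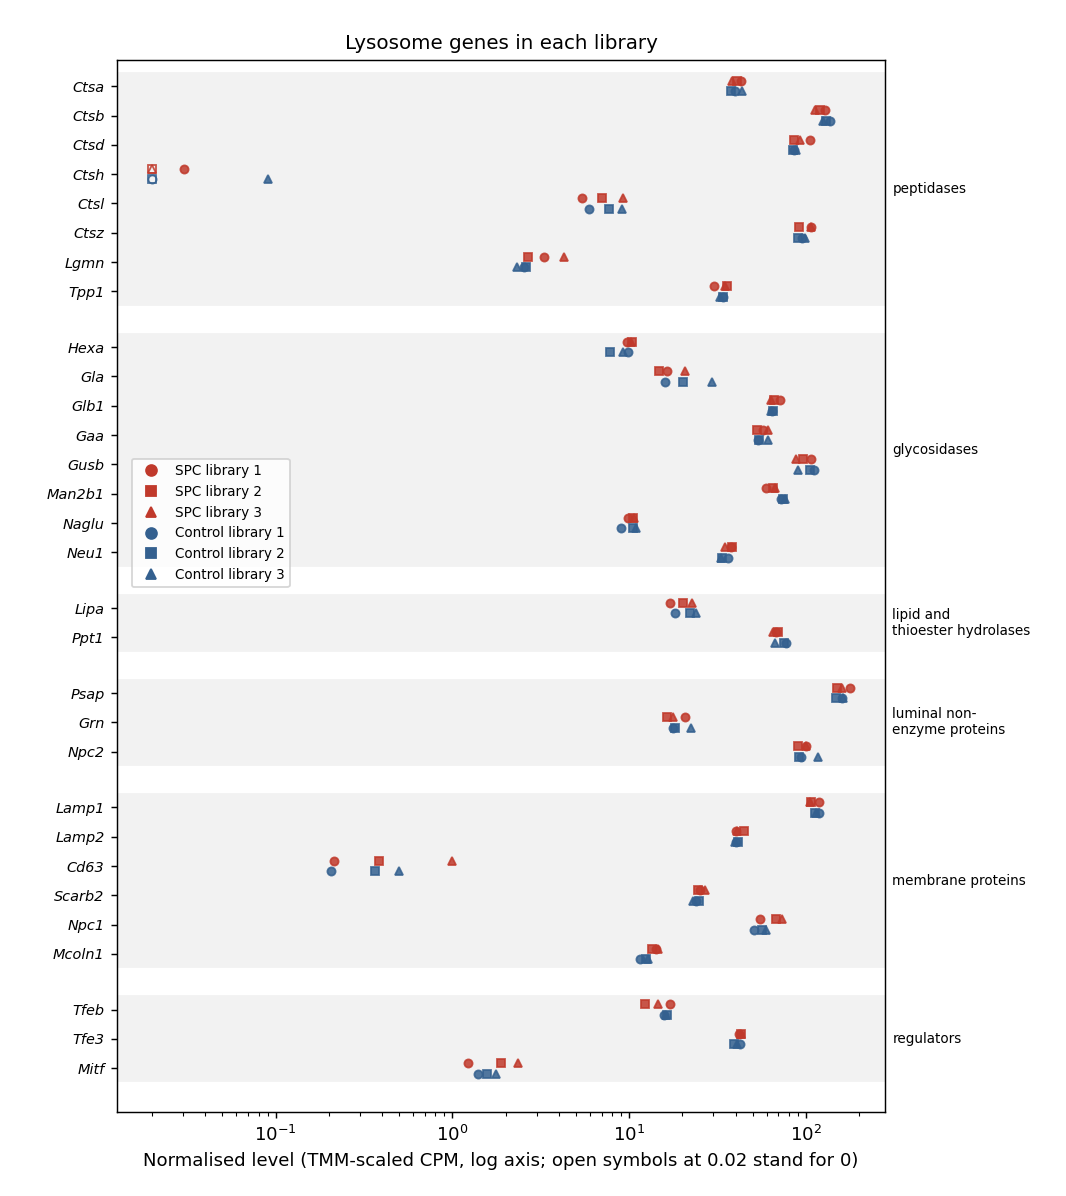
Level of each of the 30 lysosome genes in each library, in TMM-scaled CPM on a log axis, with SPC libraries in red above control libraries in blue and the library number given by the symbol. The points of a gene lie close together beside the range between genes, from Psap at 150.7 to 177.5 CPM with SPC and 148.2 to 163.1 CPM in control down to Ctsh, which had 1 count in the SPC group and 2 in the control group.

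Compared per length of transcript, so that genes can be set beside each other, the most abundant member was Ctsz, at 70.6 CPM per kilobase with SPC and 65.8 in control. Psap followed at 63.5 with SPC and 61.2 in control, Lamp1 at 49.6 with SPC and 51.7 in control, Ctsd at 44.5 with SPC and 40.4 in control and Gusb at 36.1 with SPC and 38.0 in control, all in CPM per kilobase. At the low end stood Lgmn at 1.71 with SPC and 1.25 in control, Mitf at 0.944 with SPC and 0.822 in control, and Cd63 at 0.510 with SPC and 0.342 in control, also in CPM per kilobase. Cd63 encodes a tetraspanin of late endosomes, and its counted level was far below that of the other membrane proteins. That level is uncertain, since 38.9% of the 50-base windows of its transcript also occur in its pseudogene, which has no row.

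The promoters of many members carry the core of the CLEAR element. RefSeq promoter windows (GRCm38.p6, 250 bases before to 50 after a RefSeq start of the gene) were found for 27 of the 30 genes and searched on both strands, which are alike for these palindromes. The hexamer CACGTG lay in the windows of 10 of the 27 genes (37.0%), against 8.09% of 27025 genes with a window and 12% of 9327 tested genes with a window. The longer form TCACGTGA, which contains the hexamer, lay in those of 4 members (14.8%), against 1.12% of all genes and 2.29% of tested genes. The form with a further G before and C after it lay in none of the members, in 0.370% of all genes and in 0.847% of tested genes. These elements were not particular to the members. In the further lists described below, the share with the hexamer ran from 0% (protease inhibitors) to 40.9% (lysosomal sorting). In those same lists the longer form lay in 0% and 27.3%, and the longest in 0% and 18.2%. The stretches below are those with the most copies or the longest match, with the matched letters in capitals, and all lie before the RefSeq start of their window. By the gene bounds of the GENCODE annotation, however, those of Ctsa and Ctsd lie inside the gene and that of Mcoln1 lies partly inside it. Lamp1 holds 4 copies of the hexamer in its last 73 bases before the start (chr8:13159088-13159160, plus strand). Mcoln1 (chr8:3500436-3500491, plus strand) and Gla (chrX:134601182-134601244, minus strand) each hold 2 copies, of which both in Gla and 1 in Mcoln1 have the longer form. Ctsd also holds 2, of which the one nearer to the RefSeq start, shown here, has the longer form (chr7:142387908-142387937, minus strand). Ctsa holds the longer form too (chr2:164833749-164833772, plus strand).
Lamp1: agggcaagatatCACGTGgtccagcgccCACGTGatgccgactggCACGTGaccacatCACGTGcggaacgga
Mcoln1: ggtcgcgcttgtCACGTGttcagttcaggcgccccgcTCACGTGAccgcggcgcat
Gla: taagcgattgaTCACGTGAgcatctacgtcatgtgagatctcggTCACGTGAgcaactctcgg
Ctsa: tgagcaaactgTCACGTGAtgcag
Ctsd: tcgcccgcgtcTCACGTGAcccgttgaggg
The 10 members with the hexamer had a median log2 fold change of 0.02, between -0.33 and 0.44, and the 17 without it a median of 0.05, between -0.22 and 0.54. Both sets thus spanned 0, and no member of either was called in the group-only test.

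Among the peptidases, the cathepsins B, D and Z were abundant. Ctsb, which encodes the cysteine protease cathepsin B, had 128.1, 120.6 and 112.7 CPM in the SPC libraries, against 137.4, 129.3 and 125.0 CPM in the control libraries. Its groups overlapped, its log2 fold change was -0.12 ± 0.08 (SE, adjusted p = 0.690, edgeR), and it was lower with SPC in each same-numbered pair of libraries. Of the exonic bases of Ctsb (chromosome 14, 63122462 to 63145923, mm10), 12.8% lie in exons of Fdft1 on the other strand, and reads there cannot be told apart unless counting used strand. The same holds for 26.8% of the exonic bases of Ctsl (Gm47123), 12.8% of those of Hexa (Tmem202), 10.5% and 6.87% of those of Ctsa (Pltp and Neurl2) and 9.31% of those of Lamp1 (Grtp1). A further 6.09% of those of Ctsl lie in Gm49230 on the same strand. Ctsd, the main lysosomal aspartyl protease, had 105.2, 86.2 and 92.8 CPM with SPC and 85.6, 84.3 and 87.9 CPM in control. Its SPC library 1 stood above the rest and the groups overlapped (0.14 ± 0.09, adjusted p = 0.662). Its level is uncertain, since 36.6% of the 50-base windows of its transcript also occur in Gm49369. That annotated gene shares 808 exonic bases with Ctsd on the same strand and has no row in the count tables. Reads from the shared bases cannot be assigned to either gene. Ctsz, a carboxypeptidase, had 106.9, 91.6 and 106.7 CPM with SPC and 95.3, 90.0 and 99.0 CPM in control (0.10 ± 0.08, adjusted p = 0.768).

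Ctsa encodes the protective protein that stabilises β-galactosidase and neuraminidase, and Tpp1 a tripeptidyl peptidase. Ctsa averaged 40.7 ± 2.36 CPM with SPC and 40.2 ± 3.08 CPM in control, and Tpp1 33.7 ± 2.90 CPM with SPC and 33.5 ± 0.860 CPM in control (SD, n = 3 each). On the log2 scale Ctsa differed by 0.02 ± 0.09 (adjusted p = 0.971) and Tpp1 by 0.01 ± 0.09 (adjusted p = 0.991), and both had pairs in either direction. Ctsl, which encodes cathepsin L, had 5.38, 7.04 and 9.21 CPM with SPC and 5.92, 7.66 and 9.14 CPM in control. Its level differed more between library numbers than between groups, with libraries 3 highest and libraries 1 lowest on both sides (-0.07 ± 0.22, adjusted p = 0.95).

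Lgmn encodes legumain, an asparaginyl endopeptidase that also trims other lysosomal proteases. It had 3.28, 2.68 and 4.26 CPM with SPC, from 108, 70 and 98 counts, against 2.53, 2.62 and 2.32 CPM in control, from 74, 79 and 51 counts. The groups did not overlap, by a narrow margin in libraries 2, and the log2 fold change of 0.44 ± 0.21 was the largest among members above 1 CPM but was not called (95% interval -0.03 to 0.92, adjusted p = 0.534, and 0.231 with the block). It was 0.26 without SPC library 3 and lay between 0.21 and 0.64 over all fits that left out libraries. Ctsh, which encodes cathepsin H, had 1, 0 and 0 counts in the SPC and 0, 0 and 2 in the control libraries. It was not tested, since its total lay under the minimum of 15 counts set by the filter.

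The 8 glycosidases cut sugars from glycoproteins, glycosaminoglycans and glycolipids. Man2b1, the lysosomal α-mannosidase (chromosome 8, 85083270 to 85098282), was the member with the smallest p. It had 59.7, 65.0 and 67.1 CPM with SPC, against 72.8, 74.2 and 76.4 CPM in control. Every SPC library lay below every control library, and the mean was 63.9 ± 3.83 CPM with SPC and 74.4 ± 1.81 CPM in control (SD, n = 3 each). Its log2 fold change was -0.22 ± 0.07 with a 95% interval of -0.39 to -0.05 (adjusted p = 0.315, edgeR, and 0.0473 with the block). The call with the block was lost without the libraries numbered 2 and without those numbered 3, and kept without those numbered 1.

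Gla, the α-galactosidase that removes the terminal sugar of globotriaosylceramide, showed the lowest log2 fold change of the members and, for its mean, the widest spread of the glycosidases. It had 16.3, 14.8 and 20.8 CPM with SPC, against 15.9, 20.1 and 29.5 CPM in control. Libraries numbered 1 were nearly alike while the SPC libraries numbered 2 and 3 stood below their control partners (log2 ratios of 0.04, -0.44 and -0.51 in pairs 1, 2 and 3). The log2 fold change was -0.33 ± 0.22 (95% interval -0.83 to 0.17, adjusted p = 0.695; block, 0.124). It lay between -0.51 and -0.05 when a library or both of a number were left out.

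The other 6 glycosidases had log2 fold changes between -0.07 and 0.18 with overlapping groups. Gusb, the β-glucuronidase, had 106.3, 96.4 and 88.4 CPM with SPC and 111.2, 105.0 and 89.8 CPM in control (-0.07 ± 0.10, adjusted p = 0.881). Hexa, the α subunit of β-hexosaminidase, averaged 10.2 ± 0.337 CPM with SPC and 8.96 ± 1.05 CPM in control (0.18 ± 0.12, adjusted p = 0.703). Neu1, a sialidase, averaged 36.9 ± 1.59 CPM with SPC and 34.3 ± 1.65 CPM in control (0.11 ± 0.08, adjusted p = 0.729), and was higher with SPC in each pair. Glb1, the β-galactosidase, averaged 67.0 ± 4.25 CPM with SPC and 64.3 ± 0.561 CPM in control, Gaa, which degrades glycogen, 57.0 ± 4.24 CPM with SPC and 56.2 ± 4.18 CPM in control, and Naglu, of heparan sulfate breakdown, 10.3 ± 0.361 CPM with SPC and 10.2 ± 1.02 CPM in control. The value of Glb1 is uncertain, since Tmppe, which shares 165 exonic bases with it on the same strand, had 2431, 1704 and 1380 counts with SPC and 1858, 1866 and 1416 in control, close to the counts of Glb1 itself.

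Lipa, the acid lipase that frees cholesterol from its esters, had 17.1, 20.1 and 22.6 CPM with SPC and 18.2, 22.1 and 23.9 CPM in control (-0.10 ± 0.14, adjusted p = 0.877). Ppt1, which removes fatty acids from proteins, had 68.0, 69.3 and 65.4 CPM with SPC and 77.2, 75.2 and 66.6 CPM in control (-0.11 ± 0.08, adjusted p = 0.720). Both were lower with SPC in each same-numbered pair, and the groups of both overlapped.

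None of the 3 luminal proteins that are not enzymes was called in either edgeR fit. Psap, the precursor of the saposins that present sphingolipids to their hydrolases, averaged 162.9 ± 13.6 CPM with SPC and 156.8 ± 7.72 CPM in control (0.06 ± 0.08, adjusted p = 0.886). Grn, the progranulin gene, had 20.7, 16.3 and 17.6 CPM with SPC and 17.6, 18.2 and 22.5 CPM in control, with the pairs in opposite directions (-0.09 ± 0.13, adjusted p = 0.882). Npc2, which carries cholesterol inside the lysosome, had 99.8, 90.6 and 99.6 CPM with SPC and 94.4, 92.0 and 117.7 CPM in control (-0.07 ± 0.10, adjusted p = 0.890). Control library 3 was the highest for both Grn and Npc2.

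Of the 6 membrane proteins 5 had a log2 fold change above 0, where 6171 of the 12226 tested genes did. The median of the membrane proteins was 0.15, and none of them was called in either edgeR fit. Npc1 hands cholesterol from Npc2 to the lysosomal membrane for export. It had 55.2, 67.7 and 73.3 CPM with SPC, against 50.6, 56.4 and 59.2 CPM in control. The groups overlapped, since SPC library 1 lay below control libraries 2 and 3, while each SPC library lay above its same-numbered control (log2 ratios of 0.13, 0.26 and 0.31 in pairs 1, 2 and 3). The log2 fold change was 0.24 ± 0.11 (95% interval -0.02 to 0.50, adjusted p = 0.537, and 0.0559 with the block). It was 0.15 without SPC library 3 and 0.35 without SPC library 1.

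Mcoln1 encodes the calcium channel TRPML1, whose opening leads to activation of TFEB. It had 14.2, 13.5 and 14.6 CPM with SPC, against 11.5, 12.4 and 12.8 CPM in control. Every SPC library lay above every control library, by a log2 fold change of 0.21 ± 0.10 that was not called (95% interval -0.02 to 0.43, adjusted p = 0.531, and 0.207 with the block).

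Lamp1 and Lamp2 encode the abundant glycoproteins of the lysosomal membrane. Lamp1 had 118.4, 107.4 and 106.0 CPM with SPC and 118.8, 112.9 and 114.3 CPM in control (-0.06 ± 0.07, adjusted p = 0.857), and Lamp2, needed for fusion with autophagosomes, 40.2, 44.6 and 40.6 CPM with SPC and 40.1, 41.1 and 39.8 CPM in control (0.05 ± 0.08, adjusted p = 0.888). Scarb2, the receptor that takes β-glucocerebrosidase to lysosomes, averaged 25.5 ± 1.20 CPM with SPC and 24.0 ± 0.838 CPM in control (0.09 ± 0.08, adjusted p = 0.813). Cd63 had 7, 10 and 23 counts with SPC and 6, 11 and 11 counts in control. Its log2 fold change of 0.54 ± 0.60 had a 95% interval of -0.84 to 1.91 and turned to -0.25 without SPC library 3, and 38.9% of the 50-base windows of its transcript also occur in its pseudogene.

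**Figure D2:**
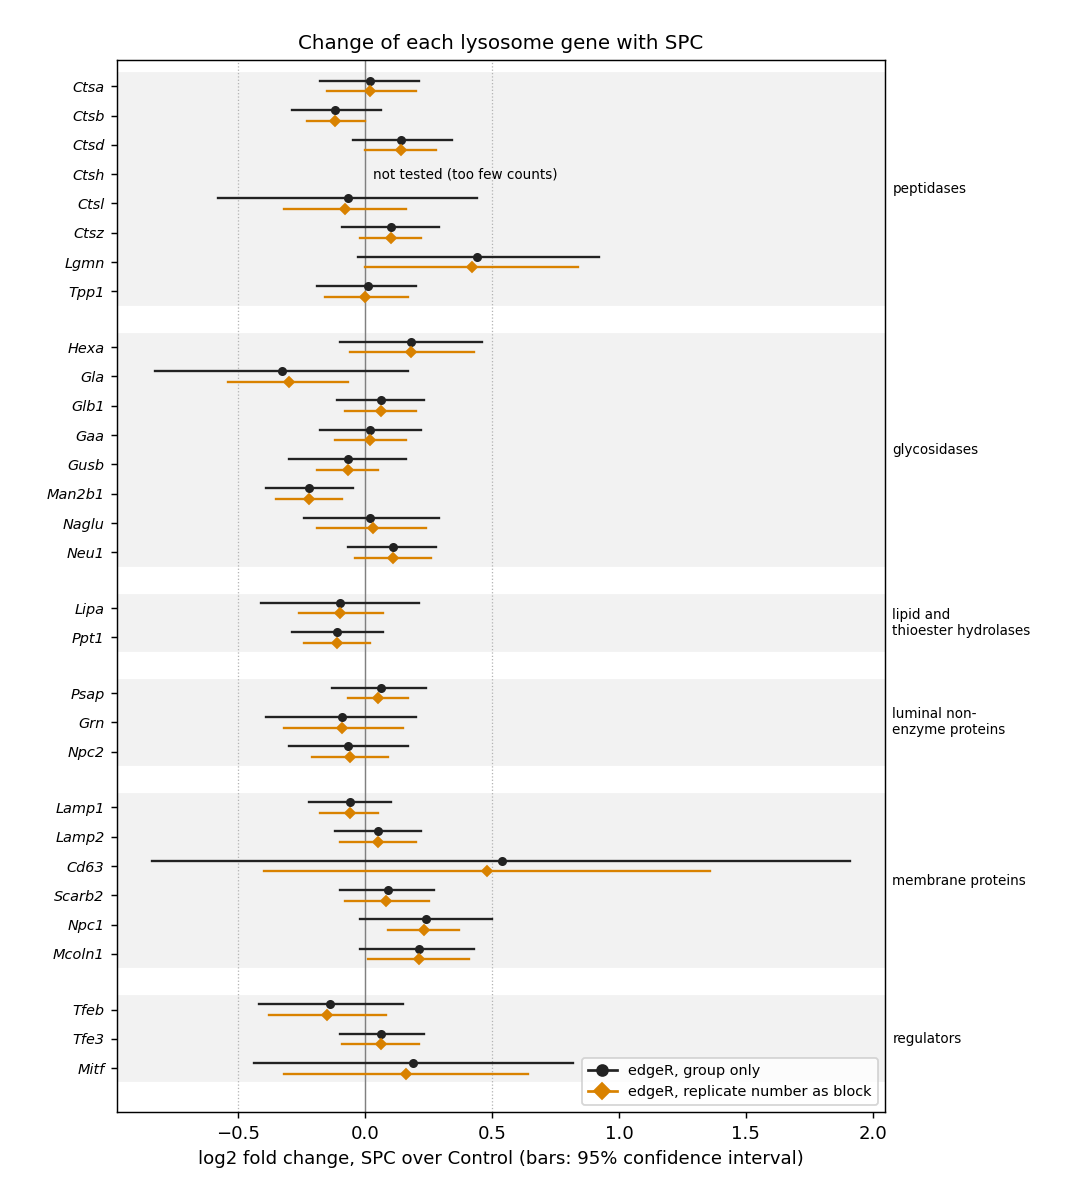
Log2 fold change of each tested lysosome gene, SPC over control, with its 95% confidence interval, from the edgeR fit with group alone (black circles) and with the library number as a block (orange diamonds). Most intervals cross 0 and lie between the dotted lines at -0.5 and 0.5; that of Man2b1 lies below 0 in both fits. With the block alone, those of Ctsb and Gla also lie below 0 and those of Lgmn, Npc1 and Mcoln1 above 0, with those of Ctsb and Lgmn reaching almost to 0.

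None of the 3 transcription factors that drive lysosome genes was called in either edgeR fit. Tfeb had 17.0, 12.3 and 14.5 CPM with SPC, against 15.8, 16.3 and 16.1 CPM in control. The control libraries lay close together and the SPC libraries on both sides of them (-0.14 ± 0.13, 95% interval -0.42 to 0.15, adjusted p = 0.797). The log2 fold change of Tfeb was -0.03 without SPC library 2 and -0.27 without SPC library 1. Tfe3, the most abundant of the 3 per length (16.0 CPM per kilobase with SPC and 15.3 in control), averaged 42.6 ± 0.598 CPM with SPC and 40.8 ± 1.60 CPM in control (0.06 ± 0.07, adjusted p = 0.849). Mitf had 1.22, 1.88 and 2.35 CPM with SPC and 1.40, 1.56 and 1.77 CPM in control, from 39 to 54 counts a library (0.19 ± 0.28, adjusted p = 0.886). These factors are regulated by phosphorylation and entry into the nucleus, which RNA levels do not measure.

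Differences between library numbers were of the size of those between groups for several members. In 15 of the 29 tested members the highest library of both groups bore the same number, as in 57.2% of all tested genes, and in 10 of the 15 it was number 3. In 7 of those 10 members, libraries 1 were also lowest on both sides (Ctsl, Man2b1, Naglu, Lipa, Cd63, Npc1 and Mitf). Ctsb and Gusb showed the opposite order, with libraries 1 highest and libraries 3 lowest on both sides. In the fit with the block but without the libraries numbered 1, 6 members were called (Ctsb, Gla, Man2b1, Grn, Npc1 and Tfeb) where 17.4% of all tested genes were. Of these Npc1 was higher with SPC and the other 5 lower.

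**Figure D3:**
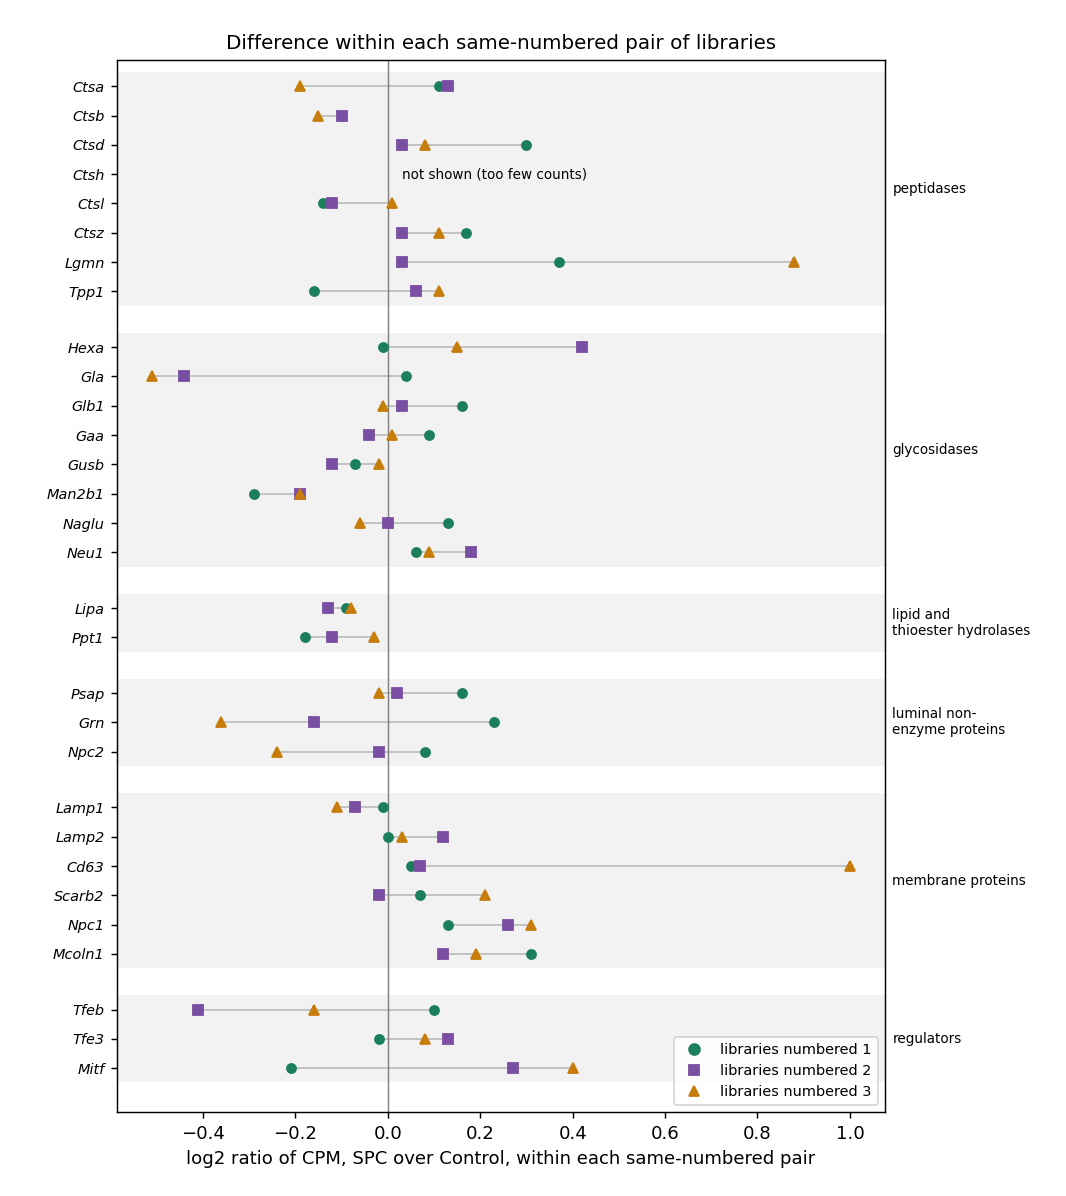
Log2 ratio of CPM, SPC over control, within each same-numbered pair of libraries for the 29 tested lysosome genes, with a grey line across the range of a gene. The 3 pairs lie on one side of 0 for genes such as Man2b1 (-0.29, -0.19 and -0.19) and Mcoln1 (0.31, 0.12 and 0.19), and on both sides for genes such as Grn (0.23, -0.16 and -0.36).

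Other genes of the pathway were read from 7 further lists. Of 37 other tested hydrolases and their cofactors none was called with group alone, and with the block 4 were higher and 3 lower, against 4.02% and 3.07% of all tested genes (median log2 fold change of the list 0.00). Ctss, a cysteine protease of antigen presentation, had 39.6, 35.0 and 36.7 CPM with SPC, against 27.7, 28.5 and 26.7 CPM in control. Its groups stood well apart (0.42 ± 0.08, adjusted p = 0.0636, 0.00551 with the block and 0.00457 by DESeq2). Scpep1, a serine carboxypeptidase, averaged 59.3 ± 6.42 CPM with SPC and 44.6 ± 6.22 CPM in control (0.41 ± 0.12, adjusted p = 0.222, and 0.00286 with the block). Ctsf, a cysteine cathepsin, had 1.03, 0.651 and 1.04 CPM with SPC, against 0.239, 0.431 and 0.227 CPM in control (1.56 ± 0.38, adjusted p = 0.136, and 0.0399 with the block). These levels rest on few counts, 34, 17 and 24 with SPC and 7, 13 and 5 in control.

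Gm2a, the activator that presents ganglioside GM2 to β-hexosaminidase, was lower, at 89.2 ± 3.40 CPM with SPC and 104.9 ± 2.95 CPM in control (-0.23 ± 0.07, adjusted p = 0.218, and 0.0238 with the block). The remaining 3 called with the block, which were picked out after their values were seen, were Galc, Acp5 and Ctsw. Galc, the enzyme that removes galactose from galactosylceramide, had 1.06, 1.76 and 2.87 CPM with SPC, against 3.08, 3.72 and 4.82 CPM in control (-1.05 ± 0.34, adjusted p = 0.288, and 0.00631 with the block). Acp5, an acid phosphatase, stood at -0.50 ± 0.15 on the log2 scale (adjusted p = 0.253; block, 0.0105). Ctsw, a cathepsin of cytotoxic lymphocytes, stood at 0.49 ± 0.23 on that scale (adjusted p = 0.515; block, 0.0127). Smpd1, the lysosomal sphingomyelinase, also named after its values were seen, averaged 17.8 ± 2.47 CPM with SPC and 19.1 ± 2.49 CPM in control (-0.10 ± 0.13, adjusted p = 0.870).

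Among 31 other tested membrane proteins none was called with group alone and 4 were lower with the block, where 3.07% of all tested genes were (median 0.05). Tpcn1, a sodium and calcium channel of endolysosomes, had 23.4, 23.2 and 27.0 CPM with SPC, against 32.4, 32.1 and 34.3 CPM in control (-0.42 ± 0.09, adjusted p = 0.0841, 0.00413 with the block and 0.00802 by DESeq2). Its groups did not overlap. Sidt1 stood at -0.47 ± 0.12 on the log2 scale (adjusted p = 0.174; block, 0.0243), and Abcb9, a lysosomal peptide transporter, at -0.70 ± 0.23 (adjusted p = 0.316; block, 0.0282). Laptm4b, the fourth, was picked out after its value was seen (-0.35 ± 0.13, adjusted p = 0.402, and 0.0473 with the block). Tmem192 stood at 24.2 ± 1.17 CPM with SPC and 20.3 ± 1.32 CPM in control and was called in neither fit (0.25 ± 0.09, adjusted p = 0.362, and 0.0883 with the block).

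The proton pump showed small differences, with 15 of 18 tested V-ATPase subunits above 0 (median 0.05), where 6171 of the 12226 tested genes were. No subunit was called in the group-only test. Atp6v0a1, a membrane subunit, was the 1 called with the block, as higher, where 4.02% of all tested genes were, at 20.4, 21.0 and 21.2 CPM with SPC, against 16.8, 16.4 and 17.2 CPM in control (0.31 ± 0.08, adjusted p = 0.174, and 0.0342 with the block). Another form of that subunit, Atp6v0a2, stood at -0.13 ± 0.07 and Atp6v1h and Atp6v1e1 at 0.17 ± 0.07 and 0.15 ± 0.09, none of them called in either fit.

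Of 30 genes that sort hydrolases and cargo to lysosomes none was called with group alone (median 0.01). Gnptab, which makes the mannose 6-phosphate tag of lysosomal enzymes, was the 1 called with the block, as lower, where 3.07% of all tested genes were, at 51.2 ± 6.70 CPM with SPC and 63.2 ± 7.16 CPM in control (-0.30 ± 0.12, adjusted p = 0.398, and 0.0443 with the block). Gga3, Vps26a and Ap3m1 had log2 fold changes between -0.22 and -0.16 and were called in neither fit, and 29.8% of the exonic bases of Ap3m1 overlap Vcl on the other strand. Of 27 genes of nutrient sensing at the lysosome, 19 were below 0 (median -0.03), where 6055 of the 12226 tested genes were. None of the 27 was called with group alone. With the block 1 was higher, where 4.02% of all tested genes were. This was Sesn2, a stress-induced inhibitor of mTORC1, at 51.0, 54.0 and 73.1 CPM with SPC, against 39.5, 43.5 and 54.8 CPM in control (0.37 ± 0.16, adjusted p = 0.478, and 0.00582 with the block). Fnip1, a partner of folliculin, Ppp3ca, the calcineurin subunit whose enzyme dephosphorylates TFEB, and Rraga, a Rag GTPase, had log2 fold changes of -0.24 ± 0.09, -0.25 ± 0.09 and -0.16 ± 0.08, called in neither fit.

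Of 28 autophagy genes, 21 were above 0 (median 0.07), where 6171 of the 12226 tested genes were. None of the 28 was called with group alone, while with the block 2 were higher, where 4.02% of all tested genes were. Ulk1, the kinase that starts autophagy, had 39.7, 43.9 and 49.0 CPM with SPC, against 33.8, 35.7 and 39.9 CPM in control (0.28 ± 0.10, adjusted p = 0.376, and 0.0314 with the block). Gabarapl1, which coats autophagosomes, had 76.3, 66.2 and 67.6 CPM with SPC, against 60.3, 57.0 and 59.8 CPM in control (0.25 ± 0.08, adjusted p = 0.288, and 0.0390 with the block). Map1lc3b and the cargo receptor Sqstm1 had 0.16 ± 0.07 and 0.20 ± 0.12 and were called in neither fit. Of the exonic bases of Gabarapl1 28.3%, and of Sqstm1 17.3%, overlap a gene on the other strand.

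The single call of the group-only test among these genes fell in the list of inhibitors of lysosomal proteases, which had 8 tested genes. In that test 0.327% of all tested genes were called as higher and 0.155% as lower with SPC. With the block 1 gene of this list was higher and 1 lower, against 4.02% and 3.07% of all tested genes. Cst7, which encodes cystatin F, an inhibitor of cysteine cathepsins, fell to 7.32, 7.77 and 7.95 CPM with SPC, against 14.3, 12.9 and 11.5 CPM in control. Every SPC library lay below every control library (-0.75 ± 0.12, adjusted p = 0.0435, and 0.00226 with the block). The call was lost in the group-only test without any one library, at adjusted p between 0.0502 and 0.247, and without both libraries of a number, at 0.0583 to 0.817. With the block it held without the libraries of each number, at 0.00011 to 0.00024. Serpinb6b was higher with the block, at 36.6 ± 12.1 CPM with SPC and 22.2 ± 4.18 CPM in control (0.71 ± 0.23, adjusted p = 0.301, 0.00156 with the block and 0.0460 by DESeq2), and Serpinb9, an inhibitor of granzyme B, and Ctla2a had 0.33 ± 0.13 and 0.28 ± 0.11, called in neither fit.

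**Figure D4:**
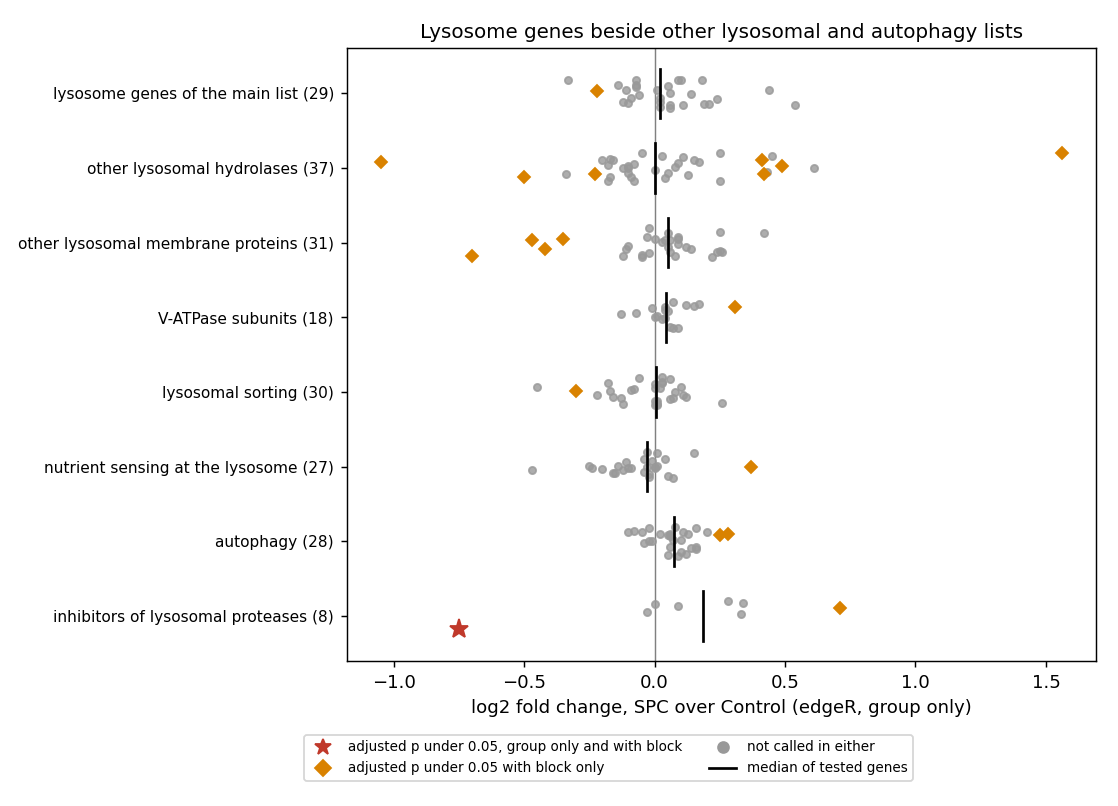
Log2 fold change, SPC over control, of the tested genes of the lysosome list and of 7 related lists, with the number tested in brackets, medians as black bars, genes called with the block alone as orange diamonds and Cst7, called in both fits, as a red star. The medians lie between -0.03 and 0.19, and called genes lie on both sides of 0.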

How the data were processed

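Each deposited file gives the authors' raw counts of reads for every gene symbol in 1 library. TopHat and mm10 are named in the submitters' processing notes, and the library kit marks strand per the labels' protocols; no source used here names the counting program, its annotation or its strand setting. Groups and library numbers come from the sample titles. The members, lists and tests were chosen with earlier results of these data known.

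Counts were tested with edgeR 4.0.16 (R 4.3.3): quasi-likelihood F test with robust dispersions, TMM scaling, group as the single term and filterByExpr (minimum count 10, minimum total 15), which kept 12226 genes, with Benjamini-Hochberg adjustment over all of them. Standard errors were derived from the log2 fold change and F, as |log2 fold change| over √F. Alternatives were the library number as a block, DESeq2 1.42.0 (size factors, and its Wald test), no filter and leaving out libraries. Simulated data were used to check the fit. Where nothing shows that libraries came from separate mice, p-values measure the spread between these libraries.

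Levels are TMM-scaled CPM, divided where stated by the length of the coding transcript with a RefSeq match and the longest coding sequence in GENCODE M21 (GRCm38, the assembly mm10 names). No library pair was identical. Deviations of same-numbered libraries from their group means correlated at 0.413, 0.208 and 0.508 across genes, all above 0.1, so the numbers were taken to pair the libraries, as the 3 experiments of the series text would. The group-only test does not use this pairing, while the fit with the block does. All members are named, with those of each other list that were called with group alone and otherwise up to 4 with the smallest p. Of the list genes, 3 were matched by an older symbol and 1 was not matched.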

Additional observations from a re-analysis of the deposited data

How the results depend on the processing

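With group alone, 59 genes were called. The count was 866 with the replicate block, 280 by the DESeq2 test and 147 with no filter on low counts, and 0 to 66 when a library or both of a number were left out, with 0 without both libraries numbered 2 and 563 to 2112 in the blocked fit (699 without the libraries numbered 2). It was 6 without SPC library 2 and 6 without control library 2. Of the lysosome members 0 were called, against 1 with the replicate block, and 0 to 6 when libraries were left out, the 6 in the blocked fit without the libraries numbered 1. The block changed no other call of a member, and the members' median of 0.02 lay between -0.01 and 0.07 in these fits. The medians lay between -0.03 and 0.08 for hydrolases (-0.02 in the blocked fit without the libraries numbered 1, or 2), 0.04 and 0.19 for membrane proteins and -0.04 and 0.11 for regulators. For the luminal proteins that are not enzymes the median lay between -0.14 and 0.06, and so changed sign. Log2 fold changes that changed sign when libraries were left out ranged from -0.03 to 0.12 for Ctsa, -0.29 to 0.11 for Ctsl, -0.05 to 0.09 for Tpp1, -0.03 to 0.09 for Gaa, -0.15 to 0.00 for Gusb, -0.05 to 0.08 for Naglu, -0.20 to 0.00 for Lipa, -0.01 to 0.11 for Psap, -0.26 to 0.05 for Grn, -0.14 to 0.06 for Npc2, -0.25 to 0.96 for Cd63 and -0.04 to 0.42 for Mitf. In the blocked fit Ctsa and Gaa stood at -0.02 without the libraries numbered 1, Tpp1 at -0.02 without those numbered 2 and Npc2 at 0.03 without those numbered 3. The cause was not tested. DESeq2 size factors changed no call of a member. Depth limits Ctsh, Cd63, Mitf and Lgmn, and also Ctsf of the other hydrolases.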
